A study of Mus musculus with 4 samples.

Results

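The genes described here are 10 markers used to recognise fibroblasts and their subsets, Dpt, Pi16, Cd34, Ly6a, Thy1, Pdpn, Eng, Nt5e, Fap and S100a4. They were taken by gene symbol from the deposited table of gene expression, where each matched 1 of 54532 rows. Expression had been measured by RNA sequencing in mouse cells labelled as primary lung fibroblasts, in 2 libraries with the genotype label Calu-KO and 2 with the label Calu-WT, called WT here. The titles of the Calu-KO libraries carry the letters KD, and those of the WT libraries the letters NC. Neither the way the gene was targeted nor the strain, age or number of animals could be taken from the sources used here. Whether both libraries of a genotype derive from different mice or dishes is also unstated, so the p-values reflect spread among these 4 libraries, which may be technical. Calu, which encodes the calcium-binding protein calumenin of the secretory pathway, was measured first as a check of the labels: its level was 14.9 and 10.9 FPKM in Calu-KO libraries and 178 and 177 FPKM in WT libraries. FPKM is a fragment count scaled to gene length and to a size set for each library, which here was not its total reads. Levels can be compared between genes, unless reads shared with other genes were split or dropped.

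Fibroblasts lack a marker of their own that every such cell carries, and are instead recognised by combinations of surface and secreted proteins. In mouse tissues, cells rich in Dpt, Pi16, Cd34 and Ly6a lie around vessels and beneath epithelia and are regarded as a shared, progenitor-like state, whereas Fap and S100a4 are used as marks of activated fibroblasts in wounds and tumours. Thy1, Eng and Nt5e, the antigens CD90, CD105 and CD73, belong to the panel by which cultured mesenchymal stromal cells are defined. Several of these genes also mark other cells: Pdpn lymphatic endothelium and alveolar type I cells, Eng and Cd34 endothelium, Thy1 T cells in the mouse, and S100a4 macrophages.

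Total recovered reads were 15635448 to 16510048 per library. Calu-KO replicate 2 stood apart, with 4.0% of its reads from mitochondrial genes, against 2.43% to 2.53% in the other 3 libraries, and with 18739 genes with a read, against 19772 to 20477. Across the 11885 genes tested, those with a mean of at least 1 FPKM, the median gap between replicates was 0.24 for Calu-KO and 0.079 for WT on the log2(FPKM + 1) scale.

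The 10 genes fell into those that were clearly expressed, at least in WT, and those that were barely detected. S100a4, Eng, Ly6a, Pdpn and Dpt passed the filter, a mean of at least 1 FPKM over all libraries of both genotypes. Pi16, Thy1, Cd34, Nt5e and Fap did not, and each stayed under 1 FPKM in every library. Dpt entered the test only because of its WT level, as neither Calu-KO library reached 1 FPKM. Of the 5 tested genes 2 were lower in Calu-KO, Dpt and Pdpn, and 0 were higher, at an adjusted p under 0.05 (limma, adjusted over all 11885 genes). Over all tested genes 1.83% were called lower, 0.942% higher and 2.77% in either direction, 217 and 112 genes, a split that became 152 and 45 when libraries were rescaled by total reads. Limma voom on recovered reads, a test added after the data were seen, called the same 2 markers, and 3.72% of its 17155 genes as lower and 5.26% in either direction. Both markers were at least 5-fold lower by mean FPKM, as were 0.682% of tested genes. With no filter on low values 0 of the 10 genes and 0 of all genes passed by limma. In that fit 3886 genes had an unadjusted p below 0.05, and limma voom called 902. The median log2 change of the 5 tested genes was -0.87, the value of Ly6a, which did not pass, against 0.01 over all tested genes. The markers were chosen with earlier results of these data known, so setting them beside all genes is no test of the set.

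**Figure D1:**
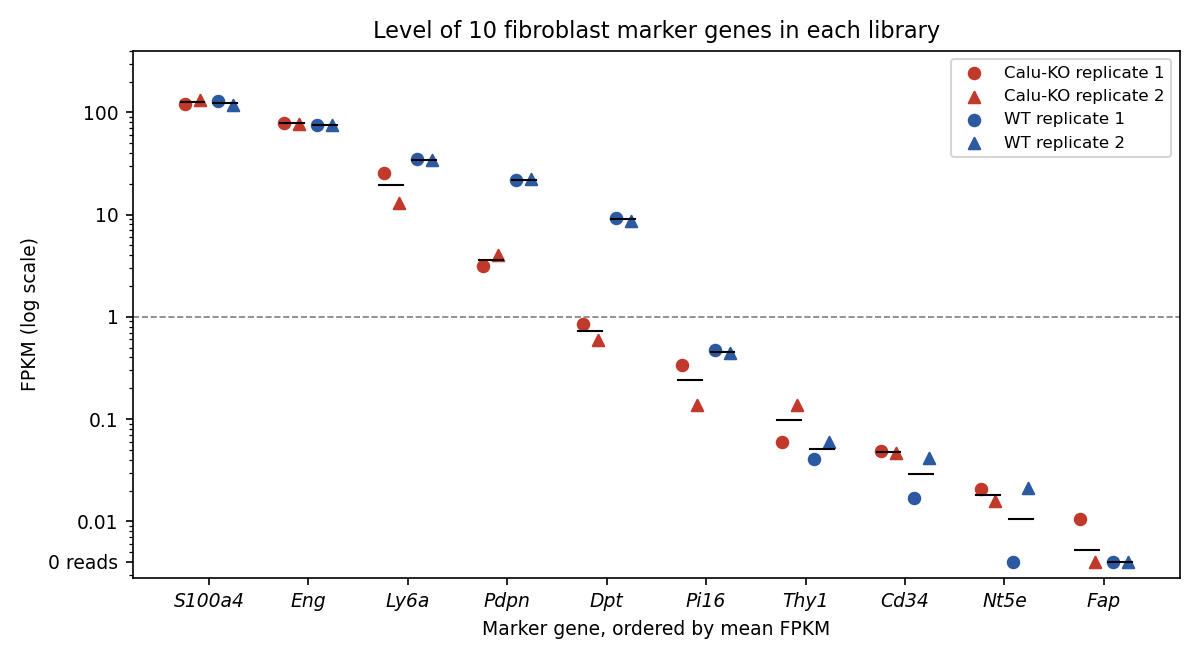
FPKM of each marker gene (log axis, with libraries that had 0 reads drawn at the foot) in the Calu-KO libraries (red) and the WT libraries (blue). Points are libraries, horizontal bars are group means of 2 libraries, and the dashed line marks 1 FPKM. Calu-KO points lie below WT points for Ly6a, Pdpn, Dpt and Pi16, and 4 genes at the right had at most 6 reads in any library.

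Dpt encodes dermatopontin, a small secreted matrix protein that binds decorin and collagen and is used as the broadest marker of tissue fibroblasts in the mouse. The gene (ENSMUSG00000026574, chromosome 1, 164796644 to 164824266, mm10, plus strand) has 4 exons and 1 transcript in the GENCODE M21 annotation. The level of Dpt was 0.858 and 0.595 FPKM in the Calu-KO libraries and 9.25 and 8.73 FPKM in the WT libraries, from 25 and 15 reads against 261 and 250. Both Calu-KO libraries lay far below both WT libraries, and neither reached 1 FPKM. The means were 0.727 ± 0.185 FPKM in Calu-KO and 8.99 ± 0.365 FPKM in WT (SD, n = 2 each), a 12.4-fold difference that left 8.08% of the WT level. The log2 change was -2.54 ± 0.15 (SE; 95% interval -2.91 to -2.16; limma adjusted p = 0.0106). This scale adds 1 FPKM before the logarithm and so understates the change of a gene as low as Dpt. On recovered reads, without that addition, limma voom gave -3.72 ± 0.36 (adjusted p = 0.00574). Only 10 of the 11885 tested genes, Dpt included, had a log2 change as low as its own. None of the 50-base words of its transcript occurred in a transcript of another gene, and the 1 gene that overlaps it on the opposite strand, Gm32569, had 0, 0, 1 and 0 reads in Calu-KO replicates 1 and 2 and WT replicates 1 and 2.

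Pdpn encodes podoplanin, a mucin-type membrane glycoprotein that binds the platelet and dendritic cell receptor CLEC-2 and, inside the cell, the ezrin and moesin proteins that tie membrane to actin. In lymph nodes it controls the contractility of fibroblastic reticular cells. Pdpn (ENSMUSG00000028583, chromosome 4, 143267431 to 143299564, mm10, minus strand) had levels of 3.12 and 3.99 FPKM in the Calu-KO libraries and 21.6 and 22.03 FPKM in the WT libraries, from 96 and 106 reads against 644 and 665. As for Dpt, the groups were well apart. Mean levels were 3.56 ± 0.613 FPKM in Calu-KO and 21.8 ± 0.272 FPKM in WT (SD, n = 2 each), a 6.14-fold difference, and 16.3% of the WT level remained. Its log2 change was -2.33 ± 0.14 (SE; 95% interval -2.68 to -1.98; limma adjusted p = 0.0106), and 15 of the 11885 tested genes, Pdpn included, had one as low. By limma voom on recovered reads it was -2.73 ± 0.20 (adjusted p = 0.0022). In the Calu-KO libraries Pdpn ranked above 61.7% and 64.5% of protein-coding genes by FPKM, whereas in the WT libraries it ranked above 89.0% and 89.2%. In bulk RNA, fewer cells that express a gene and less RNA per cell cannot be told apart, for Pdpn as for the other genes here.

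Of the other cells that Pdpn marks, lymphatic endothelium was absent by its defining genes: Flt4 and Mmrn1 had no reads, and the 4 markers Lyve1, Prox1, Flt4 and Mmrn1 summed to at most 0.0141 FPKM in Calu-KO and 0.0209 FPKM in WT. Epithelial markers were at 0 reads for Epcam, Sftpc and Nkx2-1, while Aqp5, a water channel of alveolar type I cells, stood at 14.4 and 8.87 FPKM in Calu-KO and 26.2 and 25.2 FPKM in WT. Aqp5 did not pass (log2 change -1.11 ± 0.23, limma adjusted p = 0.0796). It did by limma voom (-1.29, adjusted p = 0.0341) and with the replicate block (limma adjusted p = 0.0277). Its log2 change was -1.43 without Calu-KO replicate 1 and -0.79 without Calu-KO replicate 2. Hopx, the other tested epithelial marker, stood at 5.03 and 4.42 FPKM in Calu-KO and 4.996 and 5.24 FPKM in WT. The Hopx groups overlapped (log2 change -0.097, limma adjusted p = 0.648). Ager, under the filter, had 9 and 0 reads in Calu-KO and 13 and 14 reads in WT. The 8 epithelial markers summed to 19.7 and 13.3 FPKM in Calu-KO and 31.5 and 31.0 FPKM in WT. Nearly all of each sum came from Aqp5 and Hopx, of which only Aqp5 had separated groups. The part of epithelial cells in the Pdpn result was not tested.

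Mesothelial cells also carry Pdpn, and 1 of their 2 tested markers fell. Of 8 mesothelial markers 6 stayed under 1 FPKM in every library, and the sum of the list was 25.4 and 22.7 FPKM in Calu-KO and 35.9 and 32.8 FPKM in WT, nearly all of it from Msln. Krt8, a keratin, passed the filter through its WT libraries alone. It was called lower, with 0.0604 and 0.0699 FPKM in Calu-KO and 2.75 and 2.28 FPKM in WT (log2 change -1.72, limma adjusted p = 0.0274). This call was lost without WT replicate 1 (log2 change -1.62) or WT replicate 2 (-1.81). In such fits the within-group spread comes from the Calu-KO pair alone, and most calls over all tested genes were lost. Msln stood at 25.2 and 22.1 FPKM in Calu-KO and 33.0 and 30.4 FPKM in WT (log2 change -0.41, limma adjusted p = 0.141). Upk3b, Wt1 and Lrrn4 were at or near 0 in all 4 libraries, at no more than 0.0503 FPKM. Krt18 and Krt19, keratins of the same list, were under the filter and their groups overlapped. Krt18 had 0 and 0.143 FPKM in Calu-KO and 0.0425 and 0.0838 FPKM in WT. Krt19 had 0.0319 and 0.406 FPKM in Calu-KO and 0.0988 and 0.0325 FPKM in WT. The part of mesothelial cells in the Pdpn result was not tested.

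Promoter sequences are shown for the pair of genes that fell, Dpt and Pdpn, beside those of Eng and S100a4, whose levels were alike in the 2 genotypes. Each runs 5′ to 3′ from 250 bases before to 20 bases after the annotated start, taken from RefSeq on GRCm38.p6, the assembly also called mm10. Capitals mark matches, on either strand, to 6 motifs searched: the TATA box TATAAA, the CCAAT box CCAAT, the GC box GGGCGG, the AP-1 site TGACTCA, the E-box CACGTG and the TEAD site GGAATG, none of which overlapped another in these 4 windows.
Dpt: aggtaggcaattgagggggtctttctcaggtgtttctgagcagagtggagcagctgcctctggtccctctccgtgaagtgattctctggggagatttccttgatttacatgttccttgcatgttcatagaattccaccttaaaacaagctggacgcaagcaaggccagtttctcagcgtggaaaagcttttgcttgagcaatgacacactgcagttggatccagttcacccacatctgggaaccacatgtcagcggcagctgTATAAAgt
Pdpn: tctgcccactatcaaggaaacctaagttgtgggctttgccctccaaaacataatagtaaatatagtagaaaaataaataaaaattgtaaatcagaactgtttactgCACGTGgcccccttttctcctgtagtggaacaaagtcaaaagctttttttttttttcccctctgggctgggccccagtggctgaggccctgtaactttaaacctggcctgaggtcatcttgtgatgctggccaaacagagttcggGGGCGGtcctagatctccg
Eng: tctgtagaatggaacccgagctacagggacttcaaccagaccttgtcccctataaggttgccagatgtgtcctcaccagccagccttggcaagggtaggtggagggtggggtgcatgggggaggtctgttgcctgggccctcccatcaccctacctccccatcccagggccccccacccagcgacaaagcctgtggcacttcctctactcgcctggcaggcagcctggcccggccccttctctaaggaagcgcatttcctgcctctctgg
S100a4: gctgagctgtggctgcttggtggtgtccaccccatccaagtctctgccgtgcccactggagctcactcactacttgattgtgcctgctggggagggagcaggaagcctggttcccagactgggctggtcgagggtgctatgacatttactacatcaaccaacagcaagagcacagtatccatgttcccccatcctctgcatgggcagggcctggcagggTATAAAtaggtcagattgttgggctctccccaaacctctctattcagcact
The windows are chr1:164796413-164796682 (plus strand) for Dpt, chr4:143299545-143299814 (minus strand) for Pdpn, chr2:32646345-32646614 (plus strand) for Eng and chr3:90603520-90603789 (plus strand) for S100a4. Dpt and Pdpn had no motif of the 6 in common. The Dpt window held a TATA box that begins at base 13 from the RefSeq start, and the S100a4 window one that begins at position -31. For Dpt this RefSeq start lies downstream of the gene start given above. Of 32851 promoter windows of this length 12.9% held this motif. The Pdpn window held an E-box, found in 6.57% of windows, at position -144 from the start, and a GC box, found in 34.1%, at base 2 of the transcript. No match was found in the Eng window. CpG dinucleotides numbered 4 in each of the Dpt and Pdpn windows, 5 in the Eng window and 2 in the S100a4 window, against a median of 6 over all windows. These are matches of letters and do not show which factors bind.

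Pi16 and Cd34, which with Dpt mark the adventitial state, were under the filter. Pi16, a membrane-anchored peptidase inhibitor, had 23 and 8 reads in the Calu-KO libraries and 31 and 29 in the WT libraries (0.341 and 0.137 FPKM against 0.475 and 0.438 FPKM). The groups did not overlap, but the Calu-KO libraries differed from each other more than replicate 1 differed from WT. By limma voom, which kept genes with at least 10 reads in sum, the log2 change was -1.14 ± 0.55 (95% interval -2.44 to 0.16; adjusted p = 0.255). Cd34, a sialomucin of progenitor cells, endothelium and fibroblasts, had 6 and 5 reads in the Calu-KO libraries and 2 and 5 in the WT libraries. The summed reads, scaled by library size, gave a ratio of 1.64 with an exact 95% binomial interval of 0.582 to 5.003, which covers counting error only. An antisense gene, Gm16897, overlaps Cd34 and had 2 to 8 reads per library, and without a stated strand setting reads of this pair cannot be told apart.

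The wider adventitial list was mixed. Of its 12 genes 7 were tested, 0 rose and 1 fell, with a median log2 change of -0.27 against 0.01 over all tested genes. Fbln2, a matrix fibulin, was the 1 called gene, at 57.4 and 63.0 FPKM in Calu-KO and 99.7 and 99.8 FPKM in WT (log2 change -0.72 ± 0.11, limma adjusted p = 0.0486). That call was lost in 7 of 14 alternatives, among them a pseudocount of 0.1 (limma adjusted p = 0.0531) and the replicate block (0.0632). Among the 7 were also the fits without WT replicate 1 or WT replicate 2, where the log2 change stayed at -0.72. There the spread comes from the Calu-KO pair alone. Dpp4 and Cd55, 2 surface antigens of the same state, had no reads in any library.

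Ly6a encodes the antigen Sca-1, a small protein held to the membrane by a glycosylphosphatidylinositol (GPI) anchor and used in the mouse to mark stem cells and a fibroblast subset. Its level (ENSMUSG00000075602, chromosome 15, 74994877 to 74998031, mm10, minus strand) was 25.7 and 13.1 FPKM in the Calu-KO libraries and 34.7 and 34.3 FPKM in the WT libraries. Both Calu-KO values were under both WT values, but they were far from each other. The gap between them on the log2(FPKM + 1) scale was 0.92, and only 3.44% of tested genes had one as large. Means were 19.4 ± 8.88 FPKM in Calu-KO and 34.5 ± 0.281 FPKM in WT (SD, n = 2 each), and the log2 change of -0.87 ± 0.31 did not pass (SE; 95% interval -1.66 to -0.083, limma adjusted p = 0.176). It was -1.33 without Calu-KO replicate 1 (adjusted p = 0.00256) and -0.41 without Calu-KO replicate 2 (adjusted p = 0.0235). There the within-group spread comes from the WT pair alone, and the lone Calu-KO library is assumed to vary like them. Separated groups were common, with 61.6% of tested genes not overlapping in either direction, 29.7% lower and 32% higher in Calu-KO. Of the 5 tested markers 4 did not overlap, 3 lower (Dpt, Pdpn and Ly6a) and 1 higher (Eng).

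**Figure D2:**
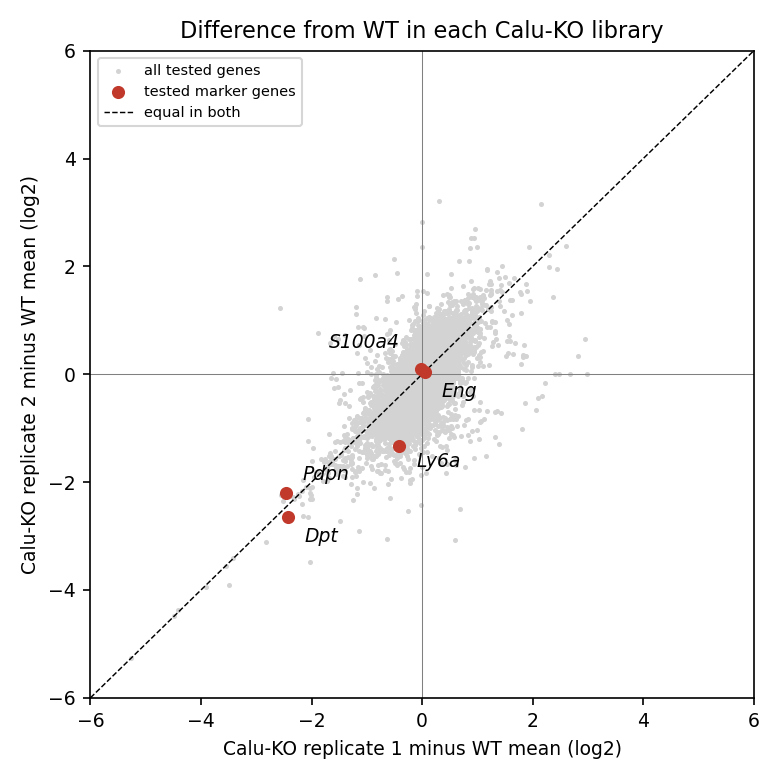
Difference from the WT mean on the log2(FPKM + 1) scale in Calu-KO replicate 1 (horizontal axis) and Calu-KO replicate 2 (vertical axis) for all tested genes (grey) and the 5 tested marker genes (red). The dashed line marks equal differences. Dpt and Pdpn lie near it at the lower left, Ly6a lies below it at -0.41 and -1.33, and Eng and S100a4 lie near the origin.

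Other genes of the Ly6 family and its relatives were also measured. Of 12 genes on that list 4 were tested, 0 passed, and 4 had a negative log2 change with a median of -0.31. Plaur, the urokinase receptor, stood at 10.5 and 4.63 FPKM in Calu-KO and 14.8 and 14.6 FPKM in WT (limma adjusted p = 0.176). Ly6c1 stood at 16.9 and 8.53 FPKM in Calu-KO and 15.7 and 18.3 FPKM in WT, and Ly6e at 50.1 and 39.99 FPKM in Calu-KO and 48.8 and 47.8 FPKM in WT. Cd59a, a complement inhibitor, stood at 3.36 and 2.95 FPKM in Calu-KO and 3.34 and 3.92 FPKM in WT, with a smaller gap between the Calu-KO libraries (0.14 on the log2 scale) than between the WT libraries (0.18). Only Plaur had separated groups. In each of the 4, Calu-KO replicate 2 was lower than replicate 1, a direction that was not counted over all tested genes. Whatever the direction, 77.3% of all tested genes had a larger gap in Calu-KO than in WT. Of the 50-base words of Ly6a transcripts 15.0% also occurred in those of Ly6c1, and how reads were divided between the pair is uncertain. Among 18 tested genes that build and attach GPI anchors 0 passed, 12 had a positive log2 change and the median was 0.07. Pigt, a subunit of the enzyme that attaches the anchor, stood at 41.2 and 49.8 FPKM in Calu-KO and 38.5 and 38.3 FPKM in WT.

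Thy1, Nt5e and Fap, 3 of the markers most used on cultured and activated fibroblasts, were at the limit of detection in both genotypes. Thy1, another GPI-anchored antigen, had 3 and 6 reads in the Calu-KO libraries and 2 and 3 in the WT libraries, where 3 reads are worth 0.0592 to 0.0685 FPKM. The ratio of summed reads was 1.88 (exact 95% binomial interval 0.567 to 7.15, counting error only). Nt5e, the GPI-anchored ectoenzyme that turns extracellular AMP into adenosine, had 3 and 2 reads in the Calu-KO libraries and 0 and 3 in the WT libraries, a ratio of 1.74 (0.339 to 11.2). Fap, a serine protease of the cell surface, had 1 and 0 reads in the Calu-KO libraries and 0 and 0 in the WT libraries. A count of 0 allows up to 0.0363 FPKM for Fap in Calu-KO replicate 2 and up to 0.0324 and 0.0319 FPKM in the WT libraries. Differences between genotypes in these 3 genes were not detectable at this depth. Their transcripts shared 0%, 0.128% and 0.526% of 50-base words with other genes for Thy1, Nt5e and Fap.

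Genes that work with Nt5e and Fap were also mostly low. Of 15 genes of extracellular nucleotide breakdown and adenosine signalling 5 were tested and 0 passed, with a median log2 change of 0.02. Entpd1, which makes the AMP that Nt5e uses, stayed at or under 0.142 FPKM in every library, while Slc29a1, a nucleoside transporter, stood at 45.4 and 47.6 FPKM in Calu-KO and 57.6 and 55.2 FPKM in WT (limma adjusted p = 0.2). Of 6 proteases related to Fap 3 were tested and 0 passed, with a median of 0.23. These included Dpp9, an intracellular dipeptidyl peptidase, at 28.1 and 31.3 FPKM in Calu-KO and 24.5 and 25.7 FPKM in WT, and Prep, at 11.9 and 14.3 FPKM in Calu-KO and 14.3 and 14.9 FPKM in WT.

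Eng encodes endoglin, a co-receptor that binds BMP9 and BMP10 together with the type I receptor Acvrl1 and shapes signalling by the TGF-beta family. Eng (ENSMUSG00000026814, chromosome 2, 32646595 to 32682669, mm10, plus strand) was the most even of the 5 tested genes. Calu-KO libraries held 78.0 and 77.6 FPKM and WT libraries 74.7 and 75.1 FPKM. The values did not overlap, but the log2 change was 0.05 ± 0.10 (SE; 95% interval -0.21 to 0.32; limma adjusted p = 0.762), and it was -0.05 when libraries were rescaled by total reads and -0.05 by limma voom, which also scales by total reads. The interval leaves room for a change of about 0.3 in either direction on that scale. Eng overlaps Fpgs by 61 bases on the opposite strand.

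Partners of endoglin were present unevenly. Gdf2 and Bmp10, the genes of its ligands BMP9 and BMP10, had no reads, and Acvrl1 stayed at or under 0.573 FPKM in every library. Of 18 genes of this pathway 15 were tested, 1 rose and 0 fell, with a median log2 change of 0.06. Tgfbr2, the type II receptor for TGF-beta, stood at 15.0 and 17.5 FPKM in Calu-KO and 8.79 and 8.26 FPKM in WT (log2 change 0.85 ± 0.13, limma adjusted p = 0.0443). It passed in 8 of 14 alternatives, with log2 changes from 0.75 to 0.96. The fits without WT replicate 1 or WT replicate 2, where the spread comes from the Calu-KO pair alone, were among those it failed. Endothelium, the main site of Eng in tissue, was not seen by its markers: Cdh5, Kdr, Emcn and Cldn5 had no reads, and 8 markers summed to 0.206 and 0.131 FPKM in Calu-KO and 0.276 and 0.257 FPKM in WT.

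S100a4 encodes a small cytosolic calcium-binding protein that binds non-muscle myosin and is also called fibroblast-specific protein 1, although macrophages and other cells express it. It was the highest of the 10 genes (ENSMUSG00000001020, chromosome 3, 90603771 to 90606045, mm10, plus strand), with 121 and 133 FPKM in both Calu-KO libraries and 130 and 117 FPKM in both WT libraries. The groups overlapped. The log2 change was 0.04 ± 0.12 (SE; 95% interval -0.27 to 0.35; limma adjusted p = 0.857), and rescaling by total reads turned its sign, to -0.07. Gm42674, annotated on the same strand, spans 2115 bases of S100a4 and shares 47.4% of its 50-base words. It had 0 and 2 reads in the Calu-KO libraries and 0 and 0 in the WT libraries, so hardly any reads were assigned to it. Reads shared by the pair may have been dropped, and the level of S100a4 may be understated in all libraries.

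S100a4 was near 0 change where most of its family had negative values that differed between the Calu-KO libraries. Of 13 other S100 genes 8 were tested, 0 passed and 8 had a negative log2 change, with a median of -0.74 against 0.01 over all tested genes. All 8 were lower in Calu-KO replicate 2 than in replicate 1, a direction that was not counted over all tested genes. S100a6 stood at 342 and 172 FPKM in Calu-KO and 385 and 430.4 FPKM in WT, S100a10 at 447 and 298 FPKM in Calu-KO and 426 and 441 FPKM in WT, and S100a11 at 1587 and 1005 FPKM in Calu-KO and 1259 and 1292 FPKM in WT. Replicate 1 alone was below the WT mean for 6 of the 8. Without replicate 2 the log2 change of S100a6 was -0.25 (-0.74 with all libraries), while S100a10 and S100a11 turned to 0.05 and 0.32 (-0.25 and -0.01 with all libraries). Among macrophage markers, a source of S100a4 in tissue, Adgre1 and Itgam had no reads, and 3 of 8 were tested, each with a negative log2 change (median -0.63). Lyz2 fell, at 1.71 and 1.25 FPKM in Calu-KO and 6.59 and 7.23 FPKM in WT (log2 change -1.68, limma adjusted p = 0.0254). This call was lost without WT replicate 1 (log2 change -1.74) or WT replicate 2 (-1.62), where the spread comes from the Calu-KO pair alone. Cd68 stood at 2.4 and 2.78 FPKM in Calu-KO and 4.32 and 4.79 FPKM in WT (limma adjusted p = 0.0888), and Cd14 at 3.46 and 2.44 FPKM in Calu-KO and 4.9 and 4.83 FPKM in WT (limma adjusted p = 0.136). Neither Cd68 nor Cd14 passed in any alternative that kept both Calu-KO libraries. The 8 macrophage markers summed to 7.81 and 6.64 FPKM in Calu-KO and 15.96 and 17.3 FPKM in WT, nearly all from Lyz2, Cd68 and Cd14. The other 5 stayed under 1 FPKM in every library. Among them Ptprc had 0 and 0 reads in Calu-KO and 1 and 1 in WT. The part of macrophages in these values was not tested.

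**Figure D3:**
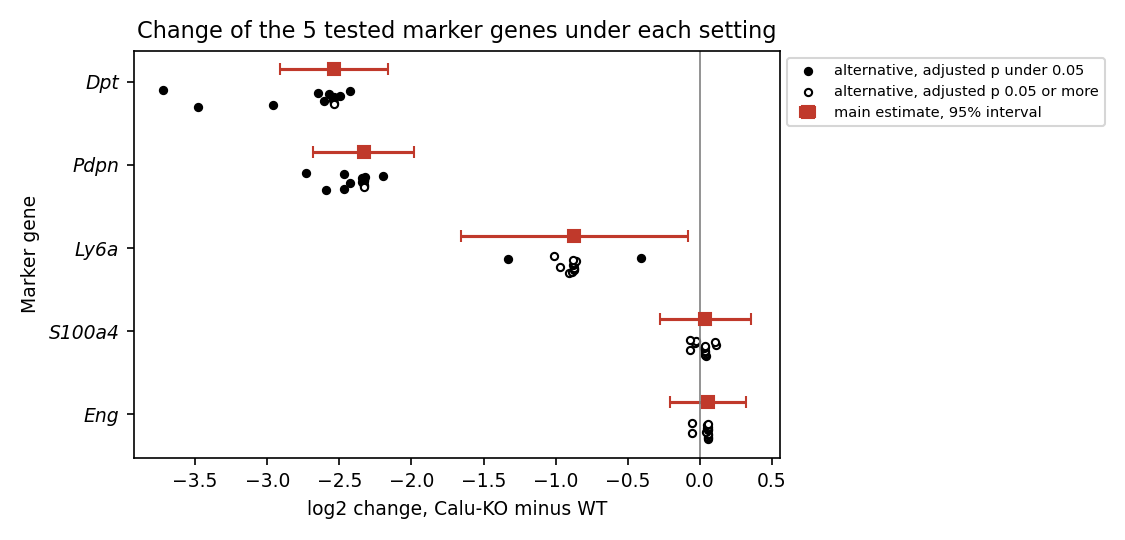
Log2 change, Calu-KO minus WT, of the 5 tested marker genes. Red squares with bars are the limma estimates on log2(FPKM + 1) with 95% intervals, and small circles are the alternative settings, filled where the adjusted p was under 0.05. Dpt and Pdpn stay at or below -2.19 under every setting shown, and the intervals of S100a4 and Eng span 0.

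By level, the order of the 10 genes was S100a4, Eng, Ly6a, Pdpn, Dpt, Pi16 and then the 4 near 0, in both genotypes. S100a4 was above Eng in every library, at 117 to 133 against 74.7 to 78.0 FPKM. Ly6a was above Pdpn in every library, as Pdpn was above Dpt. Among the last 4, Thy1 and Cd34 overlapped in the WT libraries, as did Cd34 and Nt5e. In Calu-KO, Dpt moved from the expressed genes to the side of Pi16, at 0.727 ± 0.185 FPKM against 0.239 ± 0.144 FPKM (SD, n = 2 each), whereas in WT the means of this pair were 8.99 and 0.456 FPKM.

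The low levels of Thy1, Cd34, Nt5e and Fap were set beside other genes of mesenchyme to check the label of the cells. Of 12 general mesenchymal genes 9 were tested and 0 passed. Vim, P4hb, Serpinh1, Col1a1 and Col1a2 were high, for example Col1a2, a collagen I chain, at 343 and 394 FPKM in Calu-KO and 234 and 229 FPKM in WT (log2 change 0.67, limma adjusted p = 0.0721). Col1a2 was called higher by limma voom (0.56, adjusted p = 0.0238). Its log2 change was 0.76 without Calu-KO replicate 1 and 0.57 without Calu-KO replicate 2. Pdgfra, the receptor that marks fibroblasts of many tissues, stood at 8.9 and 11.6 FPKM in Calu-KO and 11.6 and 11.4 FPKM in WT. In contrast Dcn and Lum, matrix proteoglycan genes highly expressed in most fibroblasts, had no reads in any of the 4 libraries, and of 6 lung mesenchyme transcription factors (Tbx2, Tbx4, Tbx5, Foxf1, Tcf21 and Meox2) 6 stayed under 1 FPKM in every library. Thus 4 of the 10 markers, Dcn, Lum and the lung factors were at or near 0 in cells labelled as lung fibroblasts, in which collagen I and vimentin genes were high, and origin from lung rests on the label alone. Gapdh, a gene most cells express strongly, was listed at only 2.14 to 3.96 FPKM, and whether the way reads were counted bears on such low values was not tested. Among markers of T cells, which share Thy1 and Ly6a, Cd3d, Cd2 and Cd5 had no reads, and the 6 on the list summed to 1.12 and 0.893 FPKM in Calu-KO and 1.9 and 1.74 FPKM in WT.

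Surface proteins by which stromal cultures are also sorted did not move as one. Of 12 such genes 11 were tested, 1 rose and 1 fell, and 10 had a negative log2 change, with a median of -0.48. Mcam, the adhesion molecule CD146 of pericytes and perivascular stroma, rose, at 18.4 and 12.97 FPKM in Calu-KO and 2.42 and 2.77 FPKM in WT (log2 change 2.20 ± 0.19, limma adjusted p = 0.0251). Itga6, a laminin-binding integrin chain, fell, at 5.2 and 6.04 FPKM in Calu-KO and 15.5 and 15.7 FPKM in WT (log2 change -1.33 ± 0.12, limma adjusted p = 0.0254). Without WT replicate 1 or WT replicate 2 Itga6 no longer passed, at log2 changes of -1.34 and -1.32. The spread in those fits comes from the Calu-KO pair alone. Mural markers did not rise with Mcam: Rgs5 and Cnn1 had no reads, and Cspg4 stood at 30.1 and 45.2 FPKM in Calu-KO and 36.7 and 34.5 FPKM in WT. Des, desmin, fell, at 6.81 and 7.86 FPKM in Calu-KO and 14.01 and 15.6 FPKM in WT (log2 change -0.92, limma adjusted p = 0.0412). As for Itga6, this call was lost without WT replicate 1 (log2 change -0.99) or WT replicate 2 (-0.85). Among 9 partners of podoplanin 6 were tested and 0 passed, with a median of -0.0022, among them Msn at 127 and 129 FPKM in Calu-KO and 132 and 141 FPKM in WT and Rdx at 61.0 and 83.5 FPKM in Calu-KO and 54.4 and 54.0 FPKM in WT.

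**Figure D4:**
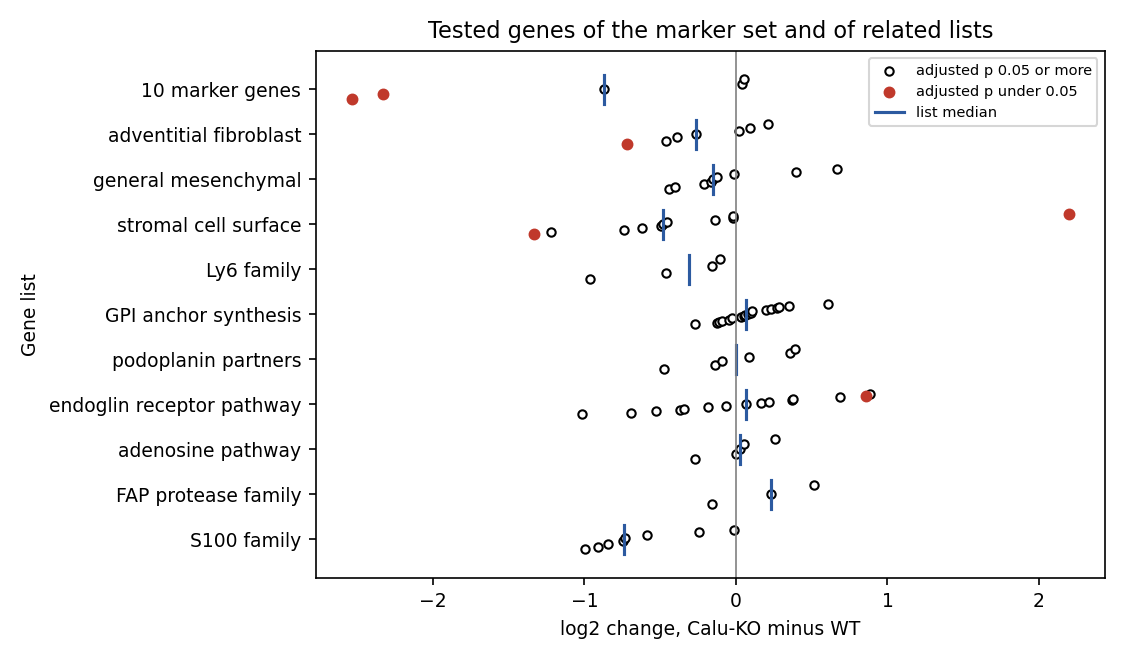
Log2 change, Calu-KO minus WT on the log2(FPKM + 1) scale, of every tested gene among the 10 markers and in 10 related lists. Red points passed at an adjusted p under 0.05 (limma), open points did not, and blue bars are list medians. Dpt and Pdpn are the red points of the marker row, Mcam is the red point at 2.20, and the S100 genes lie at or below -0.01.

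Among 10201 candidates, the tested protein-coding genes most like the pair that fell were sought by the root mean square distance between centred log2(FPKM + 1) values over the 4 libraries. Nearest to Dpt were Hist1h1c (distance 0.118), Hmga1 (0.125) and Calcrl (0.15), and nearest to Pdpn were Vldlr (0.0349), Calcrl (0.0632) and Car6 (0.0782). Each of these 5 genes was itself called lower, among them Calcrl, the receptor subunit through which adrenomedullin acts, at 0.267 and 0.421 FPKM in Calu-KO and 6.18 and 6.29 FPKM in WT. With 4 libraries such likeness is carried almost wholly by the difference between genotypes, so that these genes were called too follows from the search.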

How the data were processed

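RNA from 4 libraries, 2 Calu-KO and 2 WT, was analysed. Per the labels' protocols, alignment of read pairs used HISAT2 2.0.5, and per the submitters' processing notes the build was mm10. No source used here names the read counter, annotation or strand setting. The authors deposited FPKM values for 54532 genes with gene lengths. Multiplied by length and divided by a step per library, 100% of values were whole (tolerance 0.001 reads), which gave reads per gene. The library sizes these steps imply followed median-of-ratios size factors. Of the 10 deposited lengths, 9 equal the union of GENCODE M21 exons, and Pi16 differs. The replicates of a group differed by more than counting error (median chi-square per gene 9.23 for Calu-KO and 1.22 for WT, 100 or more reads in the pair).

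The comparison of Calu-KO against WT used limma 3.58.1 (R 4.3.3) on log2(FPKM + 1), for genes averaging 1 FPKM or more, with an intensity-dependent prior and two-sided p-values adjusted by Benjamini-Hochberg over all tested genes, threshold 0.05. An exact permutation test of 2 against 2 cannot give a p below 0.333. Steps were tested on simulated data. A fold difference is the ratio of group mean FPKM. The floor for a count of 0 is 3 reads. Alternatives changed the pseudocount, filter, scaling, prior, block, libraries and, added after the data were seen, the test (limma voom). The markers and gene lists were chosen with earlier results of these data known. Genes named from a list are those past the threshold, or otherwise up to 3 with the highest mean. Dcn, Lum, Dpp4, Cd55, Entpd1, Acvrl1, Pdgfra, Col1a1, Col1a2, Msln, Cspg4, Cd68, Cd14, Ptprc, Cd59a, Upk3b, Wt1, Lrrn4, Krt18, Krt19, Gapdh, genes with no reads and the genes next to or overlapping a marker were named after their values were seen.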

Additional observations from a re-analysis of the deposited data

How the results depend on the processing

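Dpt passed in 12 of 13 alternatives (log2 change -3.72 to -2.43) and Pdpn in 13 of 14 (-2.73 to -2.19). With no filter on low values neither passed (log2 changes of -2.54 and -2.33 as before, adjusted p = 0.11 each), 0 genes were higher or lower and 0 of the markers were called. At a minimum of 5 FPKM Dpt was not tested, 1 marker was called and 130 genes were lower. With libraries rescaled to equal totals 45 genes were higher and 152 lower (112 and 217 as reported), and S100a4 turned to -0.069, Eng to -0.053 and Cspg4 to -0.055. Limma voom gave 264 higher and 638 lower genes, S100a4 at -0.069, Eng at -0.054 and Cspg4 at -0.058. Replicate numbers did not pair the libraries (correlation of deviations 0.015), and with the replicate block 181 genes were higher and 312 lower. Leaving out 1 library gave 8 to 2926 higher and 34 to 2805 lower genes, with 2 markers called without either WT library and 3, Ly6a added, without either Calu-KO library. The log2 change then ran from -1.33 to -0.41 for Ly6a, -0.037 to 0.11 for S100a4, -0.27 to 0.050 for Ly6e, -0.34 to 0.011 for Pdgfra, -0.54 to 0.046 for S100a10, -0.34 to 0.32 for S100a11, -0.25 to 0.0068 for Serpinh1, -0.23 to 0.34 for Cspg4 and -0.16 to 0.14 for Vim. The cause of these shifts was not tested. The planned count tests on recovered reads with edgeR and DESeq2 were not run, since the deposited unit is FPKM. Genes with a few reads, Thy1, Cd34, Nt5e and Fap, are limited by depth.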

Other observations

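Genes next to Dpt and Pdpn were mostly silent, and the 1 that was expressed was not lower in Calu-KO. The nearest protein-coding genes on each side of Dpt, Atp1b1 and Xcl1, had 1 read in all 4 libraries together. Beside Pdpn, Lrrc38 had no reads, and Prdm2, 54436 bases away, stood at 10.8 and 14.6 FPKM in Calu-KO and 9.23 and 8.78 FPKM in WT (log2 change 0.44 ± 0.16, limma adjusted p = 0.188). Fpgs, which overlaps Eng, had 1151 and 633 reads in Calu-KO and 1243 and 1181 reads in WT.

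Gapdh, a glycolytic enzyme gene that most cells express strongly, was listed at only 3.23 and 2.14 FPKM in Calu-KO and 3.96 and 3.57 FPKM in WT. Of the 50-base words of its transcripts 25.1% occurred in those of other genes, most of them in Gm7336. Dcn and Lum, which had no reads, shared 0% of their words with other genes, as did Thy1.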
